A study of Mus musculus with 36 samples.

Results

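Both arms of the miR-205 hairpin, mmu-miR-205-5p and mmu-miR-205-3p, were examined in postnatal mouse kidneys together with mmu-miR-203-3p, mmu-miR-383-5p and mmu-miR-3059-5p (mmu, for mouse, is left out from here on). These 5 mature miRNAs were taken by name from a table of 1915, after earlier results of the same libraries had shown the KO and WT values at P7 and the tendency of these miRNAs to vary together. The KO effects at P7 and the co-variation with miR-205-5p are therefore given as descriptions with no p, and counts of members called at P7 stand only beside the share over all miRNAs. Comparisons of WT libraries that include P7 are not independent of that choice. All 5 had reads in 36 of 36 libraries and passed the filter on low counts in each main fit. In an alternative fit of the Pkd1 P7 libraries alone, miR-205-3p and miR-3059-5p did not pass it.

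Small RNA was sequenced from whole kidneys of C57BL/6 mice carrying floxed alleles of Pkd1 or Pkd2, whose loss causes autosomal dominant polycystic kidney disease. KO animals were Pkd1f/f:HoxB7-Cre or Pkd2f/f:HoxB7-Cre, and WT animals were age-matched Pkd1f/f or Pkd2f/f littermates without Cre, so every animal carried the floxed alleles. Ages were postnatal day 1 (P1), day 3 (P3) and day 7 (P7), and each of the 12 groups had 3 libraries. HoxB7-Cre acts in the ureteric bud lineage, which forms the collecting duct, and the other cells of a KO kidney keep the gene. Messenger RNAs, and with them Pkd1 and Pkd2, were not analysed here, which leaves the genotype labels unchecked. The labels do not say whether each library came from a separate animal, and p-values measure only the spread between these libraries. In whole kidneys fewer cells of a type cannot be told apart from less RNA per cell.

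A miRNA directs the silencing complex to messenger RNAs that pair with its seed, bases 2 to 8 from the 5′ end. miR-205 is characteristic of basal and stratified epithelia, where it is known for repressing the Zeb transcription factors together with the miR-200 family and so helping to keep cells epithelial. miR-203 is a skin miRNA that limits the proliferative state of keratinocyte progenitors by repressing p63. miR-383 is best known from testis and granulosa cells, and miR-3059 has no role that is widely established. The name epithelial thus describes miR-205 and miR-203, and is not a known property of miR-383 or miR-3059.

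The mature sequences are shown because they show that the members are separate products and not reads shared between near-identical copies. They were taken from RefSeq (GRCm38.p6), which matched 4 of the 5 members, with seeds in capitals.
mmu-miR-205-5p: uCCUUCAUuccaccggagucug
mmu-miR-205-3p: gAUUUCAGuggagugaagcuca
mmu-miR-203-3p: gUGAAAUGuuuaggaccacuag
mmu-miR-3059-5p: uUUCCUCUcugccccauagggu

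These 4 sequences carried 4 distinct seeds. Among the 1679 mature miRNAs of the RefSeq table, the seed of miR-3059-5p was shared with miR-5616-5p, and the seeds of the other 3 were shared with none. The members also came from 4 hairpins on 4 chromosomes of GRCm38. Mir205 (chr1:193507463-193507530, minus strand) lay in an exon of the long non-coding RNA 4631405K08Rik. Mir203 (chr12:112130880-112130955, plus strand) lay outside any annotated gene. Mir383 (chr8:38252133-38252202, minus strand) and Mir3059 (chr10:101772692-101772772, plus strand) lay in introns of Sgcz and Mgat4c, each on the strand of its host gene.

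Libraries held 12569939 to 32663566 miRNA reads, of which the 5 members took 0.00939% to 0.131%. Levels are counts per 1000000 reads (CPM), scaled with trimmed mean of M values factors, and 3 reads corresponded to 0.0593 to 0.471 CPM. Abundant miR-10b-5p and miR-10a-5p took 31.4% to 81.0% of the reads, so levels depend on the scaling. A few libraries stood apart on miRNAs of other tissues. Pkd1 P1 WT replicate 1 held 1786 CPM of the 7 listed striated muscle miRNAs, against at most 166 CPM elsewhere. The miR-202 arms, which mark gonad and adrenal, were between 3.28 and 30.97 CPM in 6 libraries and at most 0.273 CPM in the other 30. These 6 were Pkd1 P1 WT replicate 1, Pkd1 P3 KO replicates 2 and 3, Pkd1 P7 WT replicates 2 and 3 and Pkd2 P1 KO replicate 1.

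The members differed widely in abundance and in how much they varied. miR-203-3p held 213819 reads over all libraries and miR-205-5p held 200859, which ranked them 113 and 117 of the 1915 miRNAs. miR-383-5p held 4925 reads, miR-205-3p 1981 and miR-3059-5p 1141, with ranks of 394, 468 and 517. Libraries with at most 3 reads numbered 2 for miR-205-3p and 4 for miR-3059-5p, so single values of these miRNAs rest on few reads. From the lowest to the highest library, miR-205-5p spanned 46.1-fold and miR-3059-5p 58.5-fold, whereas miR-203-3p spanned 3.03-fold and miR-383-5p 4.09-fold.

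Much of that span lay between replicates of the same group. The SD of log2 CPM within groups was 0.87 for miR-205-5p, 0.72 for miR-205-3p and 1.12 for miR-3059-5p, against a median of 0.44 over all miRNAs tested. It was 0.29 for miR-203-3p and 0.42 for miR-383-5p. In percentiles of all miRNAs tested, miR-3059-5p stood at 96.4 and miR-205-5p at 91.6, and miR-203-3p at 24.1. When the 12 groups were ordered by mean CPM, the libraries of neighbouring groups overlapped in 11 of 11 pairs for 4 of the members. For miR-205-3p, 2 pairs did not overlap, and these separated the 3 lowest groups, Pkd1 P7 WT, Pkd2 P7 WT and Pkd1 P7 KO.

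**Figure D1:**
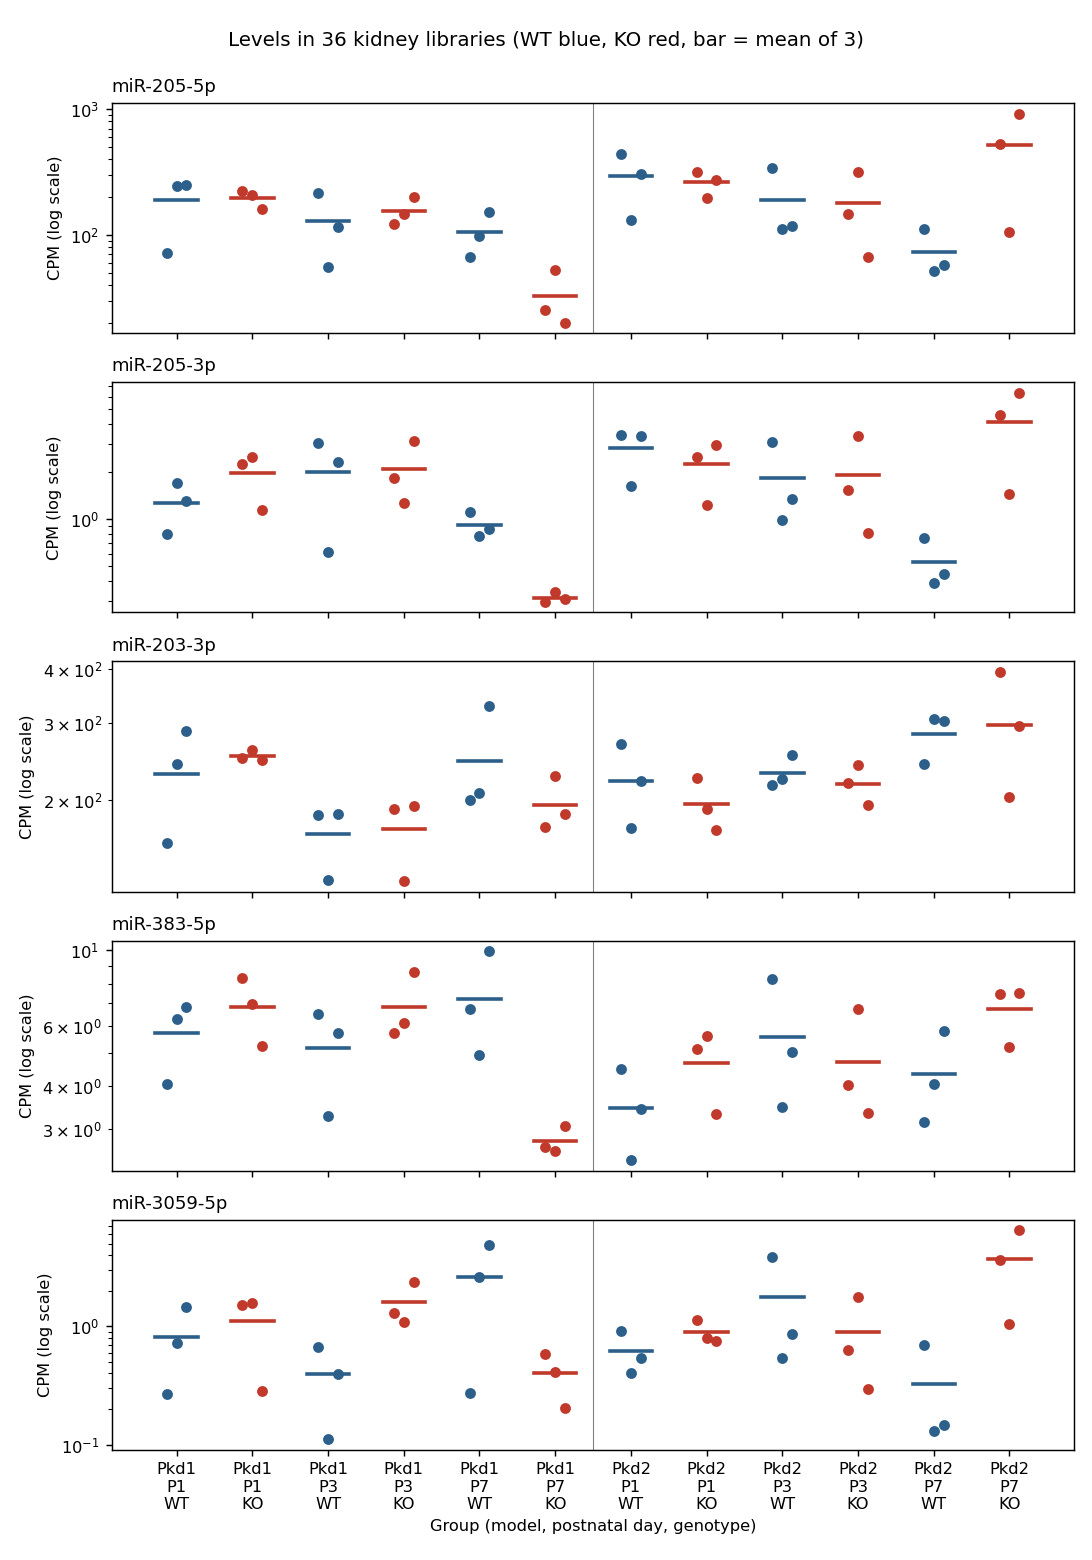
Level of each member in 36 libraries, as CPM on a log axis (each panel has its own range), by model, postnatal day and genotype. Points are libraries and bars are means of 3. Group means of miR-205-5p run from 32.6 CPM in Pkd1 P7 KO to 519 CPM in Pkd2 P7 KO, and those of miR-203-3p differ by at most 1.79-fold.

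At P7 the miR-205 arms were low in Pkd1 KO kidneys and high in Pkd2 KO kidneys. miR-205-5p, the major arm, was 66.9, 97.3 and 151 CPM in the Pkd1 WT libraries and 25.4, 52.5 and 19.96 CPM in the Pkd1 KO libraries. Every KO library lay below every WT library. The log2 fold change of KO against WT was -1.64 (SE 0.51), with means of 105 ± 42.8 CPM in WT and 32.6 ± 17.4 CPM in KO (SD, n = 3).

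In the Pkd2 model miR-205-5p was 111, 51.9 and 57.3 CPM in WT at P7 and 530, 106 and 920 CPM in KO. KO replicate 2 lay within the range of the WT libraries, while KO replicates 1 and 3 were the highest of all 36 libraries. The log2 fold change was 2.87 (SE 0.72), between means of 73.3 ± 32.5 CPM in WT and 519 ± 407 CPM in KO. Leaving out each library in turn moved it between 2.15 and 3.31.

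miR-205-3p, the minor arm of the same hairpin, had the same direction of KO effect in each model, though not the same order of libraries within each group. It was 1.10, 0.775 and 0.866 CPM in Pkd1 WT at P7 and 0.295, 0.341 and 0.307 CPM in Pkd1 KO, where only 2, 5 and 3 reads were counted. For Pkd2 it was 0.757, 0.388 and 0.444 CPM in WT and 4.55, 1.43 and 6.36 CPM in KO. The groups of both models did not overlap, in opposite directions, and the log2 fold changes were -1.45 (SE 0.66) and 3.07 (SE 0.66).

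miR-3059-5p had the widest KO effects of the members at P7, on few reads. It was 0.275, 2.63 and 4.89 CPM in Pkd1 WT and 0.590, 0.409 and 0.205 CPM in Pkd1 KO (log2 fold change -2.69, SE 0.94). WT replicate 1, with 2 reads, was within the KO range, and WT replicates 2 and 3 were among the libraries with miR-202 reads. For Pkd2 it was 0.694, 0.129 and 0.148 CPM in WT and 3.64, 1.06 and 6.50 CPM in KO (log2 fold change 3.75, SE 0.90). When each library was left out in turn the values ran from -3.18 to -1.88 in Pkd1, from 3.10 to 4.79 in Pkd2 and from -7.52 to -5.53 for the Pkd1 effect minus the Pkd2 effect. In the Pkd2 model the groups did not overlap, and the miR-202 arms were at most 0.0573 CPM in the 3 KO libraries.

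miR-383-5p was lower in Pkd1 KO at P7, with less of a difference in the Pkd2 model. It was 6.73, 4.96 and 9.96 CPM in Pkd1 WT and 2.65, 2.59 and 3.07 CPM in Pkd1 KO, with no overlap (log2 fold change -1.31, SE 0.34). In the Pkd2 model, WT libraries at 3.15, 4.05 and 5.81 CPM overlapped KO libraries at 7.45, 5.20 and 7.52 CPM (log2 fold change 0.69, SE 0.34). miR-203-3p did not share the pattern of the others: its log2 fold changes were -0.26 (SE 0.25) and 0.14 (SE 0.21), and in both models the KO and WT libraries overlapped. It was 200, 207 and 328 CPM in Pkd1 WT against 173, 227 and 185 CPM in KO, and 241, 308 and 303 CPM in Pkd2 WT against 394, 203.2 and 296 CPM in KO.

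At an adjusted p under 0.05, 0 of 5 members were called in the Pkd1 model at P7, where 0.425% of 706 miRNAs were called. In the Pkd2 model 3 of 5 were called, both miR-205 arms and miR-3059-5p, beside 12.6% of 746 miRNAs. The 94 calls behind that share fell to 4 of 744 without Pkd2 P7 KO replicate 3, to 11 without WT replicate 2, to 11 without WT replicate 3 and to 7 of 746 with library totals. Without any one of those 3 libraries 0 of 5 members were called, and with library totals 3 were. Members whose KO and WT libraries did not overlap numbered 3 for Pkd1 and 2 for Pkd2, beside 16.4% and 25.6% of all miRNAs. The KO effect in the Pkd1 model minus that in the Pkd2 model was -4.51 (SE 0.94) on the log2 scale for miR-205-5p and -4.50 (SE 0.99) for miR-205-3p. It was -6.46 (SE 1.37) for miR-3059-5p, -2.03 (SE 0.50) for miR-383-5p and -0.40 (SE 0.33) for miR-203-3p. Both arms and miR-3059-5p made up 3 calls among 5 members, and these were the only calls among 775 miRNAs (0.387%). No miRNA was called with the replicate block (0 of 775) or with the compared libraries alone (0 of 640), where 78 and 101 had an unadjusted p under 0.05. None was called either without Pkd1 P7 KO replicate 1 or 3, Pkd1 P7 WT replicate 3, Pkd2 P7 KO replicate 3 or Pkd2 P7 WT replicate 2 or 3, where 49 to 115 had such a p. The members were selected on these differences, so nothing is read from the counts.

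**Figure D2:**
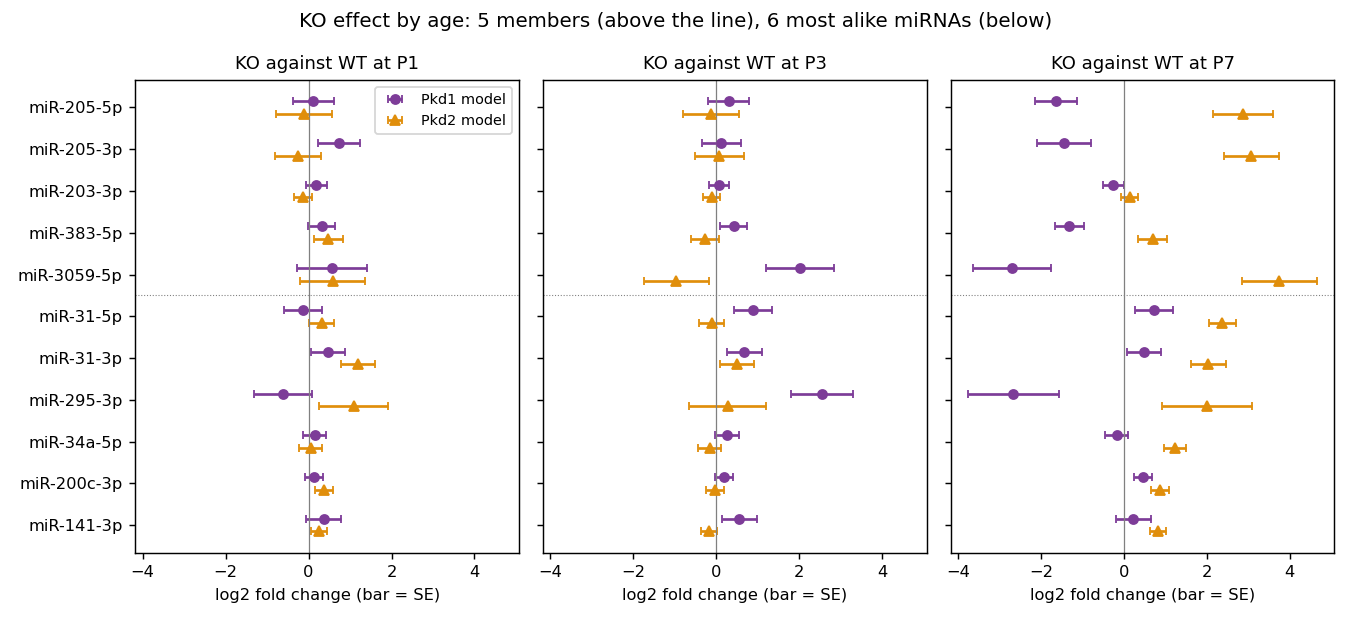
Log2 fold change of KO against WT, with its SE as the bar, at P1, P3 and P7 in the Pkd1 model (circles) and the Pkd2 model (triangles). The 5 members are above the dotted line and the 6 miRNAs most like miR-205-5p below it. At P7 miR-205-5p lies at -1.64 and 2.87, and miR-31-5p at 0.72 and 2.37.

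KO and WT kidneys were compared at P1 and P3 to ask whether the members already differed before P7. None of the 5 members was called in either model at either age by edgeR's quasi-likelihood test or by DESeq2. The background was 0% of all miRNAs called in all 4 comparisons by edgeR. By DESeq2 it was 9 of 593 miRNAs in the Pkd1 model at P1 and 9 of 552 at P3, and 0 of 746 in the Pkd2 model at each age. At P1 no member had an unadjusted p under 0.05, beside 8.36% of miRNAs in the Pkd1 model and 5.5% for Pkd2, and in Pkd2 at P3 none had, beside 1.47%. miR-205-5p at P1 was 71.7, 243 and 248 CPM in Pkd1 WT and 222, 207 and 159 CPM in KO. The Pkd2 values were 436, 132 and 306 CPM in WT and 313, 196 and 273 CPM in KO. WT and KO libraries overlapped in both models for all 5 members, where 18.1% and 13.4% of all miRNAs did not overlap. The log2 fold changes of miR-205-5p were 0.12 (SE 0.50) and -0.10 (SE 0.67). The lowest of these WT libraries, Pkd1 replicate 1, was the one with striated muscle miRNAs, and without it the Pkd1 value was -0.28 (SE 0.46).

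At P3 miR-205-5p was 214, 55.1 and 115 CPM in Pkd1 WT and 122, 147 and 198 CPM in KO, with a log2 fold change of 0.30 (SE 0.50). The Pkd2 values were 337, 110 and 118 CPM in WT and 147, 319 and 67.2 CPM in KO, with a log2 fold change of -0.13 (SE 0.68). WT and KO libraries overlapped in both models, and in the Pkd2 model they did so for all 5 members, where 4.42% of miRNAs did not. For miR-205-3p the 4 log2 fold changes ran from -0.25 to 0.73, for miR-203-3p from -0.13 to 0.19 and for miR-383-5p from -0.27 to 0.48, and WT and KO libraries overlapped in every case.

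miR-3059-5p at P3 in the Pkd1 model was the exception to the overlap. It was 0.675, 0.111 and 0.393 CPM in WT and 1.31, 1.10 and 2.39 CPM in KO. Each KO library exceeded each WT library, as was the case in either direction for 12.3% of miRNAs. The log2 fold change was 2.02 (SE 0.82), with an adjusted p of 0.488 by edgeR's quasi-likelihood test, and it was the 1 member with an unadjusted p under 0.05, beside 9.07% of all miRNAs. KO replicates 2 and 3 were among the libraries with miR-202 reads, whose part in the value was not tested. At P7 the same miRNA had the opposite direction in this model, as given above.

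The KO effects of the 2 models were also compared directly at P1 and P3. In a fit of all 36 libraries, 0 of 5 members were called at either age by edgeR or DESeq2, beside 0% of 775 miRNAs at each age by edgeR. DESeq2 called 8 of 775 miRNAs at P1 and 0 of 775 at P3. For miR-205-5p the Pkd1 effect minus the Pkd2 effect was 0.23 (SE 0.90) at P1 and 0.37 (SE 0.90) at P3, with adjusted p of 0.959 and 1.00 by edgeR. For miR-3059-5p at P3 it was 2.94 (SE 1.19; adjusted p = 0.853 by edgeR), the 1 member with an unadjusted p under 0.05. No member had an unadjusted p under 0.05 at P1, and the background was 6.32% at P1 and 5.03% at P3.

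WT kidneys were compared between ages to follow the members through the first week after birth with both genes intact. Comparisons that include P7 use values on which the members were chosen. Their p-values and calls are therefore descriptions and not independent tests. In the Pkd2 line miR-205 fell: miR-205-5p went from 436, 132 and 306 CPM at P1 to 111, 51.9 and 57.3 CPM at P7. Every P7 library lay below every P1 library. The share of all miRNAs without overlap was not counted for this comparison, so nothing is read from the separation of either arm. Its log2 fold change was -2.05 (SE 0.70; adjusted p = 0.0381 by edgeR). miR-205-3p fell from 3.44, 1.62 and 3.37 CPM to 0.757, 0.388 and 0.444 CPM, also with no overlap (log2 fold change -2.51, SE 0.66; adjusted p = 0.00937 by edgeR). These were 2 of 5 members, beside 28.3% of 746 miRNAs. Without P7 WT replicate 2 neither arm was called, with adjusted p of 0.137 and 0.0504 by edgeR, while the log2 fold changes were -1.81 and -2.28. Only the minor arm was called when P1 WT replicate 1 or 3, or P7 WT replicate 3, was left out.

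In the Pkd1 line the level of miR-205-5p was 71.7, 243 and 248 CPM at P1 and 66.9, 97.3 and 151 CPM at P7. The libraries overlapped, with a change of -0.77 on the log2 scale (SE 0.50; adjusted p = 0.283 by edgeR). Without P1 WT replicate 1 it was -1.16 (SE 0.46; adjusted p = 0.103 by edgeR). No member was called between P7 and P1 or between P3 and P1 in this line by edgeR, beside 21.5% and 18.8% of 706 miRNAs, and 1 and 0 members had an unadjusted p under 0.05, beside 36.3% and 31.6%. Whether the change with age differed between the lines was not tested.

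miR-3059-5p was called higher at P7 than at P3 in WT of the Pkd1 line, the 1 call among 5 members beside 14.4% of 706 miRNAs. It was 0.675, 0.111 and 0.393 CPM at P3 and 0.275, 2.63 and 4.89 CPM at P7. P7 replicate 1 lay within the P3 range, and the high values were those of the pair of libraries with 7.75 and 3.28 CPM of miR-202. The log2 fold change was 2.70 (SE 0.83; adjusted p = 0.0406 by edgeR), which is no independent test because P7 values were used to choose the members. The call was lost without any of 5 of the 6 libraries, and without P7 WT replicate 3 the value was 1.85 (adjusted p = 0.270 by edgeR). In the Pkd2 line its values at P3, 3.88, 0.545 and 0.860 CPM, exceeded those at P7, 0.694, 0.129 and 0.148 CPM, except for an overlap of P3 replicate 2 with P7 replicate 1. No member was called there by edgeR, beside 4.16% of 746 miRNAs, and 2 had an unadjusted p under 0.05, beside 24.5%. At P3 against P1 in that line 0 members were called, beside 0.268%, and 0 had an unadjusted p under 0.05, beside 14.2%.

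The WT kidneys of the 2 lines were set against each other to describe the baseline of the members. A difference between lines cannot be told apart from an unrecorded batch. The comparison at P7 is also not independent of the choice of the members, so its p-values and calls are descriptions. For miR-205-5p the Pkd1 line minus the Pkd2 line was -0.64 (SE 0.64) at P1, -0.56 (SE 0.63) at P3 and 0.52 (SE 0.64) at P7 on the log2 scale. None of these was called. No member was called by edgeR at P1, beside 15.2% of 775 miRNAs, or at P3, beside 2.71%, while 2 and 1 members had an unadjusted p under 0.05, beside 28.8% and 14.7%. At P7 the 1 call was miR-3059-5p, beside 11.4%, at 0.275, 2.63 and 4.89 CPM in the Pkd1 line and 0.694, 0.129 and 0.148 CPM in the Pkd2 line (log2 difference 3.19, SE 0.95; adjusted p = 0.0267 by edgeR). These libraries overlapped too, and the call was lost without any one of Pkd1 P7 WT replicates 2 and 3 and Pkd2 P7 WT replicates 2 and 3, with adjusted p of 0.0530 to 0.213.

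Subtracting each group's mean showed how the members varied among replicates. A library above its group in miR-205-5p tended to be above it in the other members too. Over 36 libraries the correlation with miR-205-5p was highest for miR-3059-5p (Spearman's rho 0.86, Pearson's r 0.82), followed by miR-205-3p (0.82 and 0.85), miR-383-5p (0.63 and 0.65) and miR-203-3p (0.59 and 0.64). Ranked by rho among 650 miRNAs they were 1, 3, 7 and 10, and the median of the 650 was 0.0067. Values from one library share its depth and its scaling, and the members had been chosen for this likeness.

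Without the 3 Pkd2 P7 KO libraries rho was 0.85 for miR-3059-5p, 0.80 for miR-205-3p, 0.62 for miR-383-5p and 0.57 for miR-203-3p. Without the 2 libraries farthest from the median of miR-205-5p, Pkd1 P7 KO replicate 3 and Pkd2 P7 KO replicate 3, Pearson's r was 0.81, 0.85, 0.67 and 0.66 in the same order. Over the 30 libraries with almost no miR-202, rho was 0.87, 0.85, 0.60 and 0.54. Deviations in these checks were taken from the group means of all libraries, so a library left out still shaped the mean of its group. By model, rho was 0.78 and 0.92 for miR-3059-5p, 0.62 and 0.94 for miR-205-3p, 0.69 and 0.64 for miR-383-5p and 0.76 and 0.46 for miR-203-3p in the Pkd1 and Pkd2 models. miR-203-3p also varied with the share of miR-10 reads (rho -0.49), whereas the values for the other 4 members were between 0.0255 and 0.117.

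**Figure D3:**
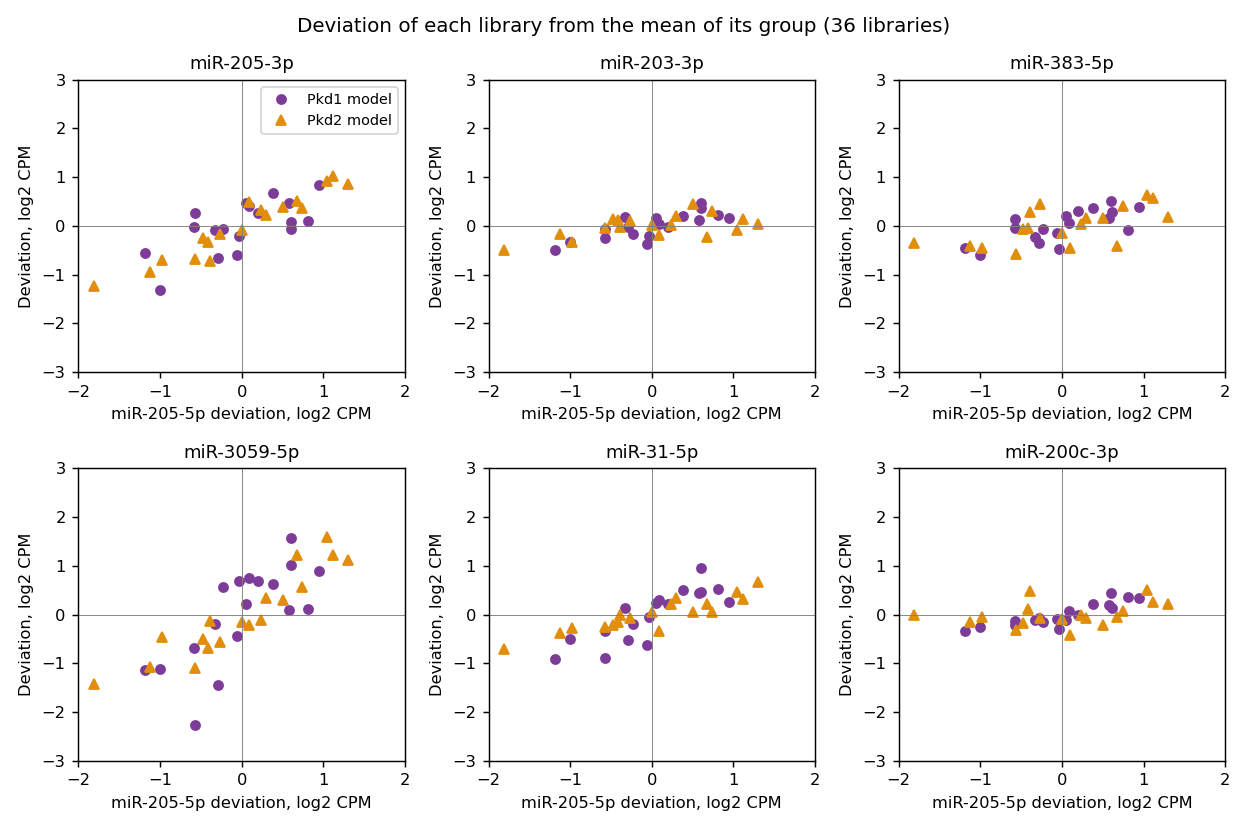
Deviation of each library from the mean of its group in log2 CPM, for miR-205-5p on the horizontal axis and another miRNA on the vertical axis (circles Pkd1 model, triangles Pkd2 model, 36 libraries). miR-3059-5p rises with miR-205-5p over the widest vertical range (rho 0.86), miR-31-5p rises in both models (rho 0.85), and miR-203-3p spans little (rho 0.59).

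Outside the members, the 6 miRNAs most like miR-205-5p were miR-31-5p (rho 0.85), miR-31-3p (0.80), miR-295-3p (0.74), miR-34a-5p (0.72), miR-200c-3p (0.61) and miR-141-3p (0.60). miR-31 is abundant in skin, miR-295 belongs to an embryonic stem cell cluster, miR-34a is a transcriptional target of p53, and miR-200c and miR-141 are epithelial miRNAs of a single cluster. The group means had been subtracted before this ranking, so it did not use the mean KO effects. It did use the spread among replicates, including those of Pkd2 P7 KO, so the ranking is not independent of the values at P7. In Pkd2 KO kidneys at P7, 5 of these 6 were called higher by edgeR, beside the background of 12.6%. In Pkd1 KO kidneys at P7 none of the 6 was called by edgeR. There 4 of the 6 were higher than in WT, and miR-295-3p and miR-34a-5p were lower. Nothing is read from these counts. The count of 5 was 3 with the compared libraries alone or without Pkd2 P7 WT replicate 1, and 2 with library totals. Without Pkd2 P7 KO replicate 3, WT replicate 2 or WT replicate 3 it was 1 in each case, miR-31-5p.

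miR-31-5p is given in full because it was the nearest of these to miR-205-5p. It was 43.3, 33.2 and 35.1 CPM in Pkd2 WT at P7 and 177, 105 and 273 CPM in KO, with no overlap. Its log2 fold change was 2.37 (SE 0.32; adjusted p = 0.00112 by edgeR). In the Pkd1 model it was 25.8, 46.3 and 93.6 CPM in WT and 73.4, 121 and 66.0 CPM in KO, where the log2 difference was 0.72 (SE 0.46; adjusted p = 0.667 by edgeR). The Pkd1 effect minus the Pkd2 effect at P7 was -1.67 (SE 0.58; adjusted p = 0.328 by edgeR) for miR-31-5p. Whether its KO effects differed from those of miR-205-5p was not tested.

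Marker lists of kidney and other cell types were set beside miR-205. The 4 stratified epithelium miRNAs outside the members, miR-31-5p, miR-31-3p, miR-184-3p and miR-203-5p, summed to 40.8 to 53.3 CPM in Pkd2 WT at P7 and to 122 to 301 CPM in KO. Of the 4, both arms of miR-31, products of the same hairpin, were called higher there, beside 12.6% of 746 miRNAs. The median log2 fold change was 1.44 over the list against 0.02 over all miRNAs. The list averaged 66.2 CPM in Pkd1 WT and 101 CPM in Pkd1 KO at P7, with a median log2 fold change of 0.56. None of the list was called there by edgeR, beside 0.425% of 706 miRNAs. The miR-200 family, which is expressed across epithelia, summed to 6040 to 7461 CPM in Pkd2 WT at P7 and to 5936 to 6326 CPM in KO. Of its 5 members, miR-200c-3p and miR-141-3p were called higher, beside the same 12.6%, and the median log2 fold change was -0.12. Relative to 1000 CPM of this family, miR-205-5p was 11.4 ± 6.09 CPM in Pkd2 WT and 84.0 ± 64.3 CPM in KO, and 26.0 ± 6.05 CPM in Pkd1 WT and 8.595 ± 3.35 CPM in KO (SD, n = 3).

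Lists of other tissues are given for Pkd2 KO at P7 as well, beside 12.6% of 746 miRNAs called, 67 higher and 27 lower. The 4 nephron tubule miRNAs summed to 14058 to 24233 CPM in WT and 5648 to 11971 CPM in KO, with 3 of 4 called lower. The 3 erythroid miRNAs in the table summed to 721 to 867 CPM in WT and 1387 to 2431 CPM in KO, with 1 called higher. Of the striated muscle list 0 of 6 tested were called, at 19.6 to 20.9 CPM in WT and 28.04 to 114 CPM in KO. Smooth muscle, mesenchyme, neural and leukocyte lists had 0 miRNAs called there, of 4, 4, 5 and 5 tested. DESeq2 called 2 striated muscle miRNAs and 1 neural miRNA higher, beside 157 of 731 miRNAs called in either direction. Without Pkd2 P7 KO replicate 3, WT replicate 2 or WT replicate 3, 0 miRNAs of the miR-200, nephron tubule and erythroid lists were called. The part of any of these in the values of miR-205 was not tested. In the Pkd1 model at P7 no miRNA of any list was called, beside 0.425% of 706 miRNAs. The nephron tubule list there summed to 15780 to 27192 CPM in WT and 11238 to 12748 CPM in KO.

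Within groups, the stratified epithelium list varied with miR-205-5p (rho 0.86) and with miR-3059-5p (0.86). Most of that list was miR-31-5p, with a mean of 185 of 209 CPM in Pkd2 P7 KO, which had itself been named for its likeness to miR-205-5p, so this rho restates that choice. The miR-200 family varied less with them (0.34 and 0.36) and more with miR-203-3p (0.68). For the nephron tubule list rho was -0.29 with miR-205-5p and 0.50 with miR-203-3p, and for smooth muscle it was 0.03 and 0.69. miR-203-3p thus differed from miR-205-5p in which lists it accompanied, over the same 36 libraries. It also varied with the share of miR-10 reads (rho -0.49, against 0.098 for miR-205-5p), whose part in this difference was not tested.

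The ratio of the miR-205 arms was not used to choose the members and was compared between KO and WT. miR-205-3p made up 0.977% of all miR-205 reads, and between 0.517% and 1.98% in single libraries (median 1.01%). At P7 the share was 0.992% ± 0.552 in Pkd1 WT and 1.10% ± 0.437 in KO, and 0.730% ± 0.0459 in Pkd2 WT and 0.957% ± 0.336 in KO (SD, n = 3). Over 6 comparisons the exact two-sided permutation p was between 0.2 and 0.9, with Benjamini-Hochberg values of 0.6 to 0.9 and a smallest possible p of 0.1. With 3 libraries against 3 the test could not pass 0.05.

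**Figure D4:**
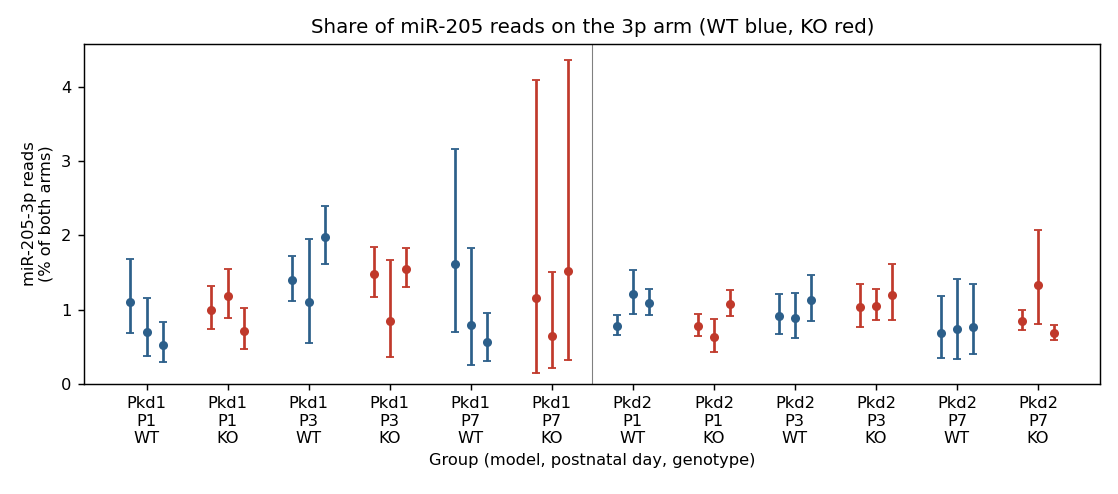
Share of miR-205 reads that came from the 3p arm in each library, in percent of both arms, by model, postnatal day and genotype. Bars are exact 95% binomial (Clopper-Pearson) intervals, which cover counting error only. Shares lie between 0.517% and 1.98%, and the widest intervals are those of Pkd1 P7 KO replicates 1 and 3, with 2 and 3 reads of miR-205-3p.

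The opposite arms of the other hairpins were also minor. miR-203-5p made up 0.590% of the reads of its hairpin, miR-383-3p 1.01% and miR-3059-3p 0.696%, on 1268, 50 and 8 reads. miR-203-5p, the one with enough reads to be tested, was not called at P7 in either model (log2 fold change -0.17, SE 0.43 for Pkd1 and 0.26, SE 0.33 for Pkd2). Its rho with miR-203-3p within groups was 0.32, against 0.82 between the miR-205 arms.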

How the data were processed

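Per the labels and the study's methods, the authors made small RNA libraries from total kidney RNA, trimmed adaptors, dropped reads of 17 bases or fewer and assigned the rest with miRDeep2 to miRBase release 21 and mm10. They deposited whole-number read counts without normalization. The submitters' notes also name CASAVA 1.8.2 and HTSeq. Of 2061 rows, the one with the highest total was kept for each of 1915 mature miRNAs. Counts were fitted with edgeR 4.0.16 (R 4.3.3) by the quasi-likelihood test, with TMM factors, at least 10 counts in at least 3 libraries, and 1 term per group. Each model was fitted on its 18 libraries, and comparisons between models on all 36. P-values were adjusted by Benjamini-Hochberg over all miRNAs tested, with a threshold of 0.05. CPM and co-variation used TMM factors of all 36 libraries, the latter as log2 CPM with a prior count of 2. The fit of each model was tried on simulated counts, for WT at P7 against P1 only. The fit of all 36 libraries and the comparisons of KO with WT were not tried in this way. DESeq2 1.42.0 and other settings were alternatives.

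The members, marker lists and comparisons were chosen with earlier results of these data known. Beside the members, the text names the opposite arms of their hairpins, the 6 miRNAs with the highest Spearman's rho with miR-205-5p after subtraction of group means, and marker miRNAs whose values moved with a member's result. Intervals and floors cover counting error only.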

Additional observations from a re-analysis of the deposited data

Results flagged for a closer look

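miR-205-3p moved in opposite directions at P7: every Pkd1 KO library lay below every Pkd1 WT library, and every Pkd2 KO library lay above every Pkd2 WT library. The KO effect in the Pkd1 model minus that in the Pkd2 model was -4.50 on the log2 scale. No p is given for it: the members were chosen on this difference, which makes it a description and not an independent test.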

How the results depend on the processing

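Of the values followed under an alternative, 476 were counted as unchanged, 35 lost a call, 2 gained one, 2 moved and 5 changed sign. Apart from KO effects at P7, the change of a single member was followed only in some cases. It had to be called, or have an unadjusted p under 0.05 in KO against WT. The sign change of miR-205-5p in the Pkd1 model at P1 without WT replicate 1 is therefore not among the 5. For tested results, unchanged means the same count or the same direction and call. For KO effects at P7, rho and arm shares it means only a shift within a set margin of spread. Calls were not assessed there, so the calls lost at P7, given above, are not among the 35. With library totals in place of TMM, the median of all miRNAs shifted by -0.78 in Pkd2 WT at P7 against P1, -1.27 in Pkd1 WT at P7 against P3 and -0.86 between the WT lines at P7. Relative to these shifts both miR-205 arms still fell in Pkd2 WT, by 2.84 and 3.25 on the log2 scale before the shift is taken off. That scaling called 1 member between the WT lines at P1 (miR-205-3p, log2 difference -2.25), beside 229 of 775 miRNAs and a median shift of -0.91. In Pkd1 WT at P7 against P3 it called miR-205-3p in place of miR-3059-5p, beside 276 of 706.

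In Pkd1 WT at P7 against P3 the count of members called was 0 with the compared libraries alone, 0 without the filter and 0 to 1 when leaving out each library. It was 0 to 1 between the WT lines at P7 and 0 to 2 in Pkd2 WT at P7 against P1 when leaving out each library. DESeq2 called 2 members in Pkd2 WT at P7 against P3, miR-205-3p and miR-3059-5p, of 76 called among 731, against 31 of 746 by edgeR. The cause was not tested.

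Of 18 pairs of KO and WT libraries with the same replicate number, 7 had a correlation of deviations over 0.1, and 5 matched best with their own number. These correlations ran from -0.49 to 0.46. With 3 libraries per group they cannot decide whether the libraries were paired. With the replicate number as a block the count of members called was 0 in Pkd1 WT at P7 against P3 and 0 between the WT lines at P7, each in place of 1, and 0 in the difference between the KO effects at P7, in place of 3. The block changed no other count of members called.

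rho of miR-205-3p with miR-205-5p was 0.62 within the Pkd1 model, 0.94 within the Pkd2 model and 0.82 over both. The log2 fold change of miR-203-3p in the Pkd2 model at P7 was -0.12 without KO replicate 1 and ran up to 0.31 when other libraries were left out. The KO minus WT share of the 3p arm ran from -0.391 to 0.0487 percentage points in the Pkd1 model at P3 and from -0.0998 to 0.424 at P7 when leaving out each library. It changed sign there to 0.0272, 0.0487, -0.0943 and -0.0998.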
